A study of Chlorocebus sabaeus with 18 samples.

Results

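The comparison of COS-7 cells that carried a CGG repeat construct and had TRA2A knocked down with control COS-7 cells rested on 6 of the 18 arrays of the series, 3 in each group, chosen by their titles. COS-7 was derived from green monkey kidney (Chlorocebus sabaeus), and the arrays were Clariom D Human arrays, whose probes were designed for human transcripts. In the combined group the cells received by transfection a 5' untranslated region of FMR1 with 60 CGG repeats, and TRA2A was knocked down in the same cells (titles with siTRA). The controls carry no treatment in the labels, which do not say whether they were transfected or received a control siRNA, and whose condition field names COS-7 for array 1, COS-6 for array 2 and COS-5 for array 3 although the cell line field says COS-7 for each. Cells with the CGG construct alone (CGG) and cells with TRA2A knocked down alone, 3 arrays each, served as the nearest groups, and CGG array 1 and knockdown array 3 are marked as rehybridised. TRA2A-overexpressing cells, without the construct (titles with GFP_TRA) and with it, made up the other 2 groups. No group held the construct without the repeat or an siRNA against another gene, so the repeat, the knockdown, transfection and handling cannot be told apart in a comparison with the controls. Whether replicate arrays stem from separate cultures is not stated, so p-values here reflect array-to-array spread alone, which may be technical.

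CGG repeats in the 5' untranslated region of FMR1 lie in a transcript that, when moderately expanded, is linked to the late-onset movement disorder FXTAS. RNA with such repeats gathers in the nucleus with RNA-binding proteins, and it can also be translated from non-AUG starts into short repeat proteins. TRA2A belongs to the Tra2 family of SR-like splicing regulators, which bind purine-rich exonic enhancers and promote exon inclusion, and its paralog TRA2B has an overlapping role.

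Values are log2 signals, so a difference of 1 is a 2-fold change, and a gene is a transcript cluster of the array. The 6 arrays had median log2 values between 4.15 and 4.20 and correlated at 0.977 to 0.985 across transcript clusters. On the leading principal component, which held 12.7% of the variance, the controls lay at -79.5, -63.6 and -30.7 and the combined arrays at -5.58, -10.7 and 12.7. The controls had the widest spread of the 6 groups, with a mean SD of 0.302 per transcript cluster against 0.26 in the combined group. Kidney epithelial keratin KRT8 stood at 14.04 in controls and 13.96 in the combined cells, and the mesenchymal filament VIM at 15.50 and 15.74. Of 12 tested kidney epithelial markers, CLDN4 rose and PAX8 fell, and of 9 fibroblast-like markers S100A4 rose. Of all genes with 1 symbol 1.66% were called higher and 0.663% lower. The PAX8 call was lost without control array 2 or 3 or combined array 1 or 3, and that of S100A4 without control array 1 or 2 or combined array 1 or 3. None of the 6 leukocyte, 8 endothelial, 6 neuronal and 2 erythroid markers tested passed the test, and the mean log2 level of each list stayed low in both groups. Leukocyte markers ran from 5.20 to 5.24 in controls and from 5.10 to 5.38 in the combined cells, endothelial markers from 4.87 to 4.89 and 4.90 to 5.14, neuronal markers from 4.33 to 4.50 and 4.35 to 4.56, and erythroid markers from 4.74 to 5.24 and 4.99 to 5.41. Fibroblast-like markers averaged 8.23 to 8.59 and 8.33 to 8.52, and kidney epithelial markers 7.72 to 8.02 and 7.90 to 7.93, overlapping between the groups. The endothelial means did not overlap between the groups, with no gene of that list called. The 2 tested erythroid genes were not called but lay higher in every combined array, as 8.22% of all clusters did. HBA1 was 6.08, 6.75 and 6.13 in controls against 7.39, 6.80 and 7.05 (limma adjusted p = 0.153). HBA2 was 5.86, 6.20 and 5.54 against 6.86, 6.36 and 6.42 (limma adjusted p = 0.136). HBA1 also lay above all controls in CGG cells, at 7.09, 7.49 and 7.31, and with knockdown alone, at 7.65, 6.98 and 6.98. In the same groups HBA2 stood at 6.66, 6.90 and 6.59 and at 6.67, 6.47 and 6.29. HBB stood at a mean of 4.02 in controls and 3.77 in the combined cells, under the filter. Their part in the results below was not tested.

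TRA2A (TC0700010472.hg.1) was 14.65, 14.68 and 14.54 in the 3 control arrays and 11.63, 11.96 and 11.88 in the combined arrays. Every combined array lay below every control array, and the gene was 6.96-fold lower (log2 change -2.80 ± 0.19 SE, adjusted p = 1.02e-07 in limma). With the knockdown alone TRA2A stood at 11.40, 12.04 and 11.20, a range that overlaps with that of the combined arrays, and the difference of 0.28 had a 95% interval from -0.12 to 0.68. CGG cells without knockdown stood at 14.49, 14.51 and 14.71, within or close to the control range. TRA2B (TC0300013428.hg.1) was 16.33, 16.64 and 16.33 in controls and 16.77, 16.72 and 16.89 in the combined cells. The TRA2B difference of 0.36 ± 0.15 did not pass the test (adjusted p = 0.376). FMR1 (TC0X00008668.hg.1) was 12.42, 12.81 and 12.58 in controls and 12.48, 12.61 and 12.88 in the combined cells, with overlapping arrays and a difference of 0.05 ± 0.17 (adjusted p = 0.957). In RNA from whole cultures, fewer cells with a transcript and less of it per cell cannot be told apart.

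The fall in signal was not even over the features of TRA2A. The counts and medians that follow include features under the exon-level filter given below. All 14 exon-exon junctions of the gene had a lower mean in the combined cells, with changes from -4.22 to -0.60 and a median of -2.73, while 21 of the 24 exon regions were lower, with changes from -3.63 to 0.68 and a median of -1.58. Region PSR0700174530.hg.1, the brightest exon region of the gene in controls, stood at a mean of 15.50 there and at 14.99 in the combined cells. Region PSR0700174532.hg.1 stood at 10.55 and 10.45. Relative to the gene, these regions were higher by 2.29 ± 0.20 (adjusted p = 1.29e-05) and 2.69 ± 0.23 (adjusted p = 9.02e-06). In all, 6 of 27 tested features of TRA2A were called higher relative to the gene and 0 lower (the background is given with the exon-level results). Junctions with the highest control values, JUC0700062013.hg.1 at 16.18 and JUC0700062012.hg.1 at 15.69, stood at 12.80 and 12.61 in the combined cells. The size of the fall in TRA2A thus differed with the probes that read it. How well each human probe reads this monkey transcript was not tested.

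**Figure D1:**
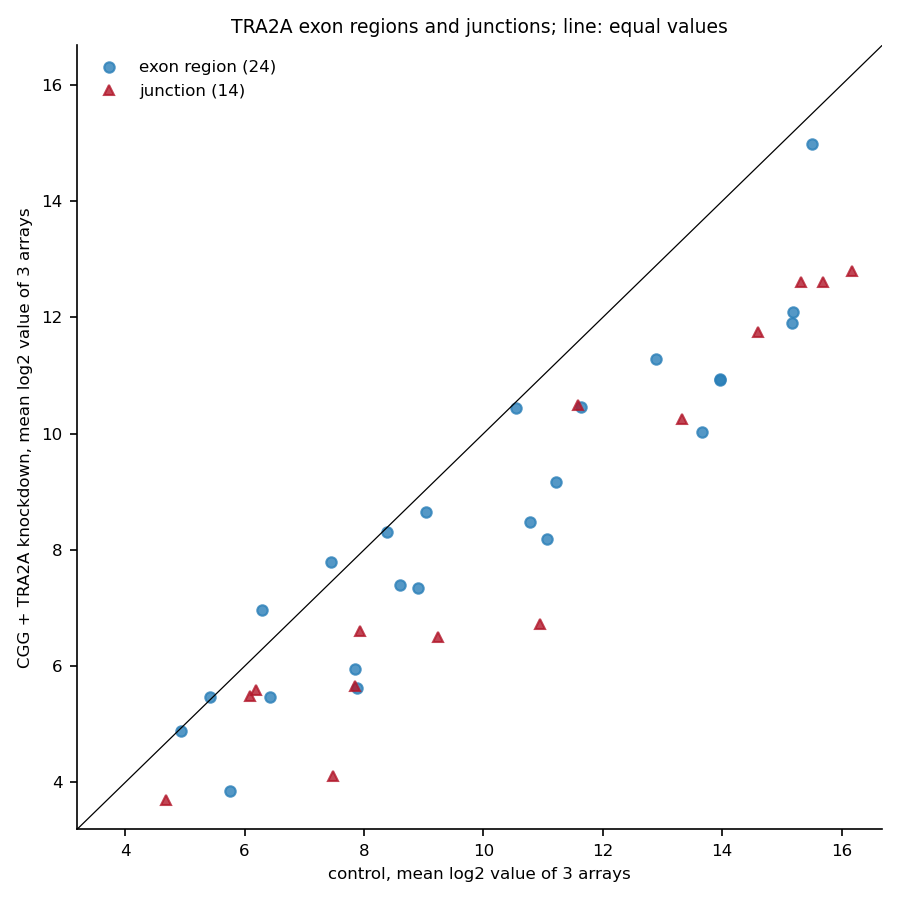
Mean log2 value of each TRA2A exon region (24, circles) and junction (14, triangles) in control (x axis) and in CGG cells with TRA2A knockdown (y axis), 3 arrays each, with the line of equal values. Junctions lie below the line by 0.60 to 4.22, and several exon regions lie on or near it.

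Against controls, 665 of 67854 tested transcript clusters (0.98%) passed an adjusted p under 0.05 in limma, of which 463 (0.682%) were higher and 202 (0.298%) lower in the combined cells. A change of at least 2-fold was seen in 245 of the higher (0.361% of those tested) and 127 of the lower ones (0.187%), and 10.6% of all clusters had an unadjusted p under 0.05. In 8.22% of clusters all combined arrays lay above all controls and in 5.51% below them. With quantile normalization of the arrays the split was 385 higher and 283 lower. Leaving out 1 array moved the count to between 323, without combined array 1, and 897, without control array 3. Genes with 1 symbol made up 23836 of the tested set after the highest cluster per gene was taken, and 554 of them (2.32%) were called. Of these 396 (1.66%) were higher and 158 (0.663%) lower, with a median change of 0.09 over all 23836.

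HMOX1 (TC2200007204.hg.1), the stress-inducible heme oxygenase, showed the largest named rise. It was 5.37, 6.03 and 5.88 in the control arrays and 11.54, 10.88 and 11.14 in the combined arrays, a 43.0-fold rise (5.43 ± 0.28 on the log2 scale, 3 arrays in each group, limma adjusted p = 1.82e-09). The gap between the groups was far wider than the spread within either, though rises were named only where arrays did not overlap. HMOX1 was as high in the other 4 treated groups, with means of 11.59 in CGG cells, 11.50 with knockdown alone, 11.54 with TRA2A overexpression and 11.16 with both construct and overexpression.

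AKR1B15, an aldo-keto reductase, was 7.51, 7.11 and 7.28 in controls and 12.16, 11.84 and 11.94 in the combined cells, 25.6-fold higher. Its neighbour in sequence AKR1B10 was 7.93-fold higher (log2 change 2.99 ± 0.26), and probes may not separate the pair. GDF15, a secreted stress cytokine, was 6.53, 6.25 and 7.05 in controls against 10.67, 10.33 and 10.09, a 13.5-fold rise. SQSTM1, the autophagy receptor p62, was 11.43, 11.49 and 11.56 in controls against 14.92, 14.71 and 14.83, a 10.0-fold rise. For these genes no array of one group reached the range of the other, which was a condition for naming them among the rises. SPP1 (osteopontin, a secreted phosphoprotein) rose by 3.16 on the log2 scale and CSF1, the macrophage growth factor, by 3.02, from 11.11, 11.50 and 11.22 to 14.42, 14.50 and 13.98. ARRDC3, an arrestin-domain protein, rose by 2.76, GPNMB, a lysosomal and melanosomal glycoprotein, by 2.72 and FABP3, a fatty acid-binding protein, by 2.62.

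INSIG1, which retains the sterol sensor complex in the endoplasmic reticulum, was 9.62, 9.63 and 9.99 in controls and 12.15, 12.31 and 12.58 in the combined cells, 6.06-fold higher. DDIT3, the stress transcription factor CHOP, was 5.70, 5.68 and 6.03 against 8.47, 8.63 and 7.97, 5.87-fold higher. CLDN4, a tight-junction claudin, rose by 2.47, and FTLP3, a pseudogene of the ferritin light chain whose probes may share signal with FTL, by 2.36. ATP6V0B, which encodes part of the vacuolar ATPase, was 8.68, 11.70 and 10.55 in controls and 12.68, 12.70 and 12.72 in the combined cells. Its rise of 2.39 ± 0.50 (adjusted p = 0.024) was lost without control array 1 or without any 1 of the combined arrays. None of these 15 largest rises was called against CGG cells or against knockdown alone.

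**Figure D2:**
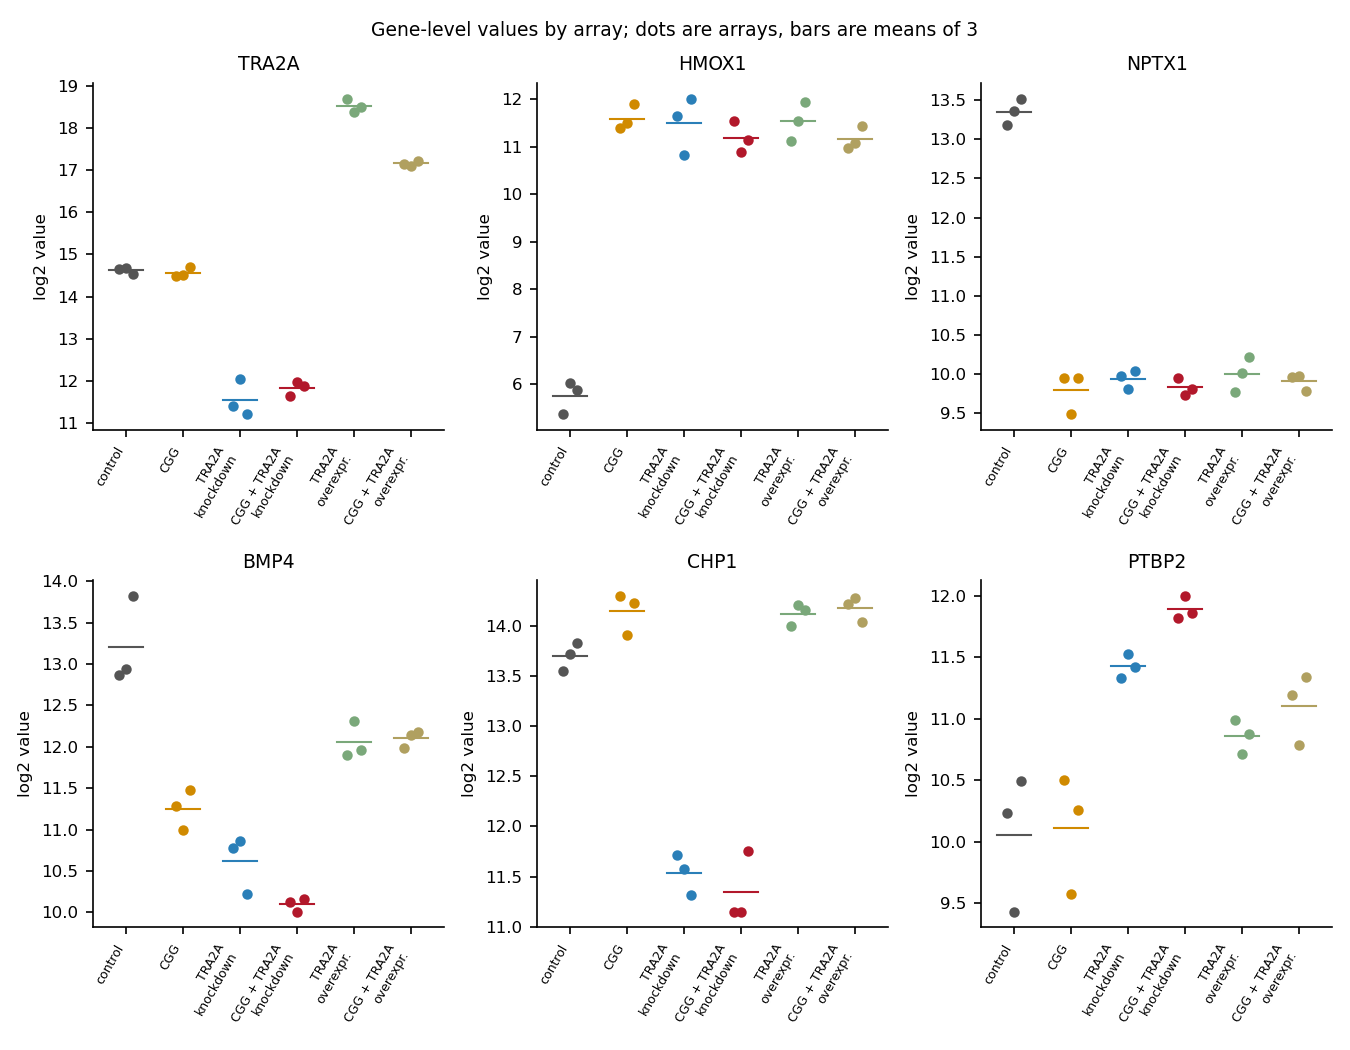
Gene-level log2 value (y axis) of TRA2A, HMOX1, NPTX1, BMP4, CHP1 and PTBP2 in each array (dots) of the 6 groups (x axis), with the mean of 3 arrays as a bar. HMOX1 and NPTX1 set the controls apart from the 5 treated groups, while TRA2A and CHP1 are low in both knockdown groups and PTBP2 has its highest values in the combined cells.

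NPTX1 (TC1700011984.hg.1), neuronal pentraxin 1, had the largest fall. It was 13.19, 13.36 and 13.52 in controls and 9.94, 9.73 and 9.81 in the combined cells, 11.6-fold lower (log2 change -3.53 ± 0.17, adjusted p = 9.23e-10, limma). BMP4 (TC1400009214.hg.1), a secreted ligand of the BMP pathway, was 12.87, 12.94 and 13.82 against 10.12, 10.01 and 10.16, 8.65-fold lower (log2 change -3.11 ± 0.23, adjusted p = 4.29e-07). The combined arrays of BMP4 lay below every array of the other 5 groups, whose means were 11.25 in CGG cells, 10.62 with knockdown alone, 12.06 with overexpression and 12.10 with construct and overexpression. Its difference from CGG cells was -1.16 ± 0.23 (adjusted p = 0.0592) and from knockdown alone -0.52, with a 95% interval from -1.01 to -0.03 (adjusted p = 0.998), so neither was called.

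CHP1 (TC1500006994.hg.1), a calcineurin-like calcium-binding protein that serves sodium-proton exchangers, was 13.55, 13.72 and 13.83 in controls and 11.15, 11.15 and 11.75 in the combined cells, 5.10-fold lower. STRADB, a pseudokinase partner of LKB1, was 11.54, 11.82 and 11.58 against 9.52, 9.35 and 10.19, 3.89-fold lower. IGF2BP2, an mRNA-binding protein, was 15.37, 15.45 and 15.51 against 13.82, 13.63 and 13.43, 3.52-fold lower. Each of these falls was wider than the range within either group, though falls were named only where arrays did not overlap. WWC1, the Hippo pathway scaffold KIBRA, fell by 2.16 on the log2 scale, ALPK2, an alpha kinase, by 1.97, and ANKRD1, a YAP-responsive ankyrin repeat protein, by 1.95. MYLK, myosin light chain kinase, fell by 1.80, VIT, the matrix protein vitrin, by 1.75, and MALT1, the paracaspase of NF-kB signalling, by 1.75. The other named falls were FOXP1, a forkhead transcription factor, at -1.72, GJA1, the gap junction protein connexin 43, at -1.69, and TENM3, a teneurin, at -1.67.

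**Figure D3:**
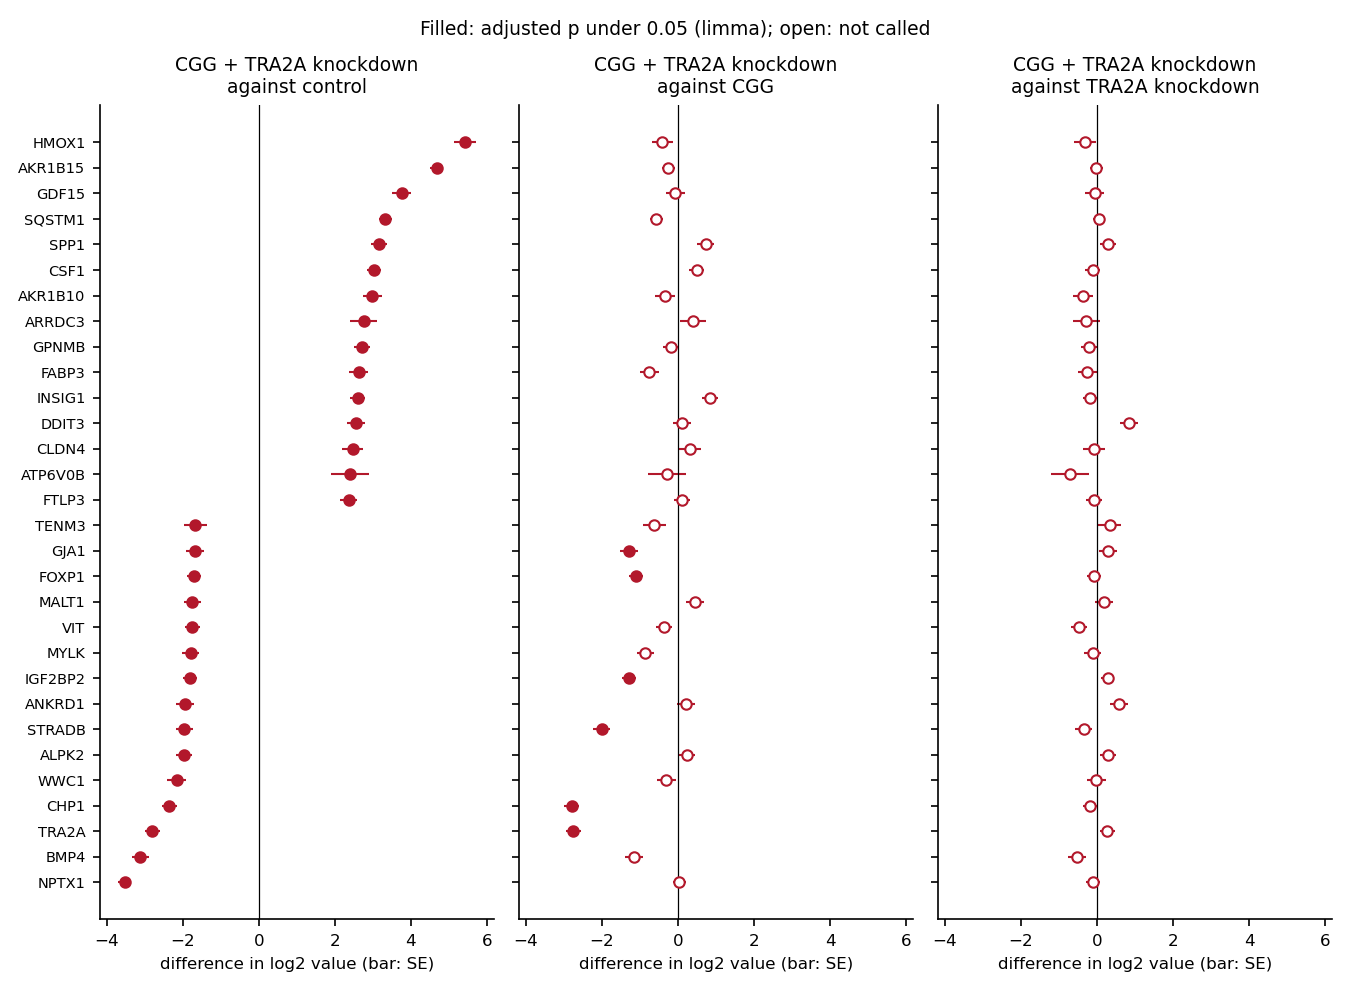
Difference in log2 value (x axis, with SE) of the 15 largest rises and 15 largest falls against control (left) when CGG cells with TRA2A knockdown are set against control, CGG cells and TRA2A knockdown alone, with filled dots for adjusted p under 0.05. TRA2A, CHP1, STRADB, IGF2BP2, FOXP1 and GJA1 are also filled against CGG cells, and no dot is filled against knockdown alone.

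Genes that answer the antioxidant factor NRF2 were the list with the most calls. Of 29 tested members 20 rose and 0 fell, where 1.66% of all genes rose, and the list's median change was 1.08 against 0.09 over all genes. The list includes HMOX1, SQSTM1 and AKR1B10. EPHX1, an epoxide hydrolase, rose by 2.05, from 9.38, 10.17 and 9.91 to 11.90, 11.82 and 11.89. NQO1, a quinone reductase, rose by 1.74 and SLC7A11, which imports cystine, by 1.62. GCLM and GCLC, the subunits of the enzyme that starts glutathione synthesis, rose by 1.08 and 0.78. NFE2L2, which encodes NRF2 itself, rose by 0.72, while its inhibitor KEAP1 changed by 0.27 and the thioredoxin gene TXN by 0.04, neither called. Without 1 array the count of rises was 15 to 19.

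Heme and iron genes overlap with that list in HMOX1, FTL and ABCB6. Of 17 tested members 7 rose and 0 fell, with a median of 0.70, where 1.66% of all genes rose and 0.663% fell. FTL, the ferritin light chain, rose from 16.00, 16.25 and 16.34 to 17.69, 17.63 and 17.78 (adjusted p = 2.13e-05, limma). BLVRB, a biliverdin reductase, rose by 1.42 and ALAS1, the first enzyme of heme synthesis, by 1.34. LCN2, an iron-siderophore carrier, was 5.03, 5.21 and 5.73 in controls and 7.78, 7.18 and 6.82 in the combined cells, a rise of 1.94 ± 0.28 (adjusted p = 0.00112). Metallothionein genes, which answer to metals, had no call among 10 tested (0 with an unadjusted p under 0.05) and a median of 0.09 that turned to -0.02 with quantile normalization and ran from -0.10 to 0.18 without 1 array.

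Genes of the lysosome and its proton pump rose in 12 of 28 tested members and fell in 0, with a median of 0.71. For this list and the autophagy and proteasome lists below, 1.66% of all genes rose and 0.663% fell. CTSD, the protease cathepsin D, was 12.70, 12.80 and 13.72 in controls and 15.44, 15.06 and 15.05 in the combined cells, a rise of 2.11 ± 0.22. CTSL, cathepsin L, rose by 2.04, LAMP2, a lysosomal membrane protein, by 1.12, and MCOLN1, a lysosomal calcium channel, by 1.02. The count fell to 5 without control array 1, combined array 1 or combined array 3 and to 6 without control array 2, and reached 15 without control array 3. Among 23 genes of autophagy, SQSTM1 and OPTN rose. The OPTN rise of 1.07 was lost in 10 alternatives, whereas SQSTM1 kept its call in all 13 tried. Of 30 proteasome genes, PSMB6, PSMD3, PSMD14 and PSMC2 were called higher with changes of 0.69 to 0.87, and the list's median was 0.45. No proteasome gene was called with quantile normalization, nor when any 1 array other than control array 3 was left out.

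Cholesterol synthesis genes rose in 9 of 27 tested members and fell in 0, with a median of 0.66. Among all genes 1.66% rose and 0.663% fell. HMGCS1, which makes the precursor of mevalonate, was 11.69, 11.91 and 11.77 in controls and 13.76, 13.88 and 13.86 in the combined cells, a rise of 2.04 ± 0.22. IDI1 and MSMO1, enzymes further along the pathway, rose by 1.54 and 1.35. The regulators SREBF2 at 0.31, SREBF1 at -0.31 and SCAP at -0.07 were not called, and neither were the sterol exporters ABCA1 at -0.10 and ABCG1 at -0.18. Without 1 array the count was 7 to 10.

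In the integrated stress response, the program run by phosphorylated eIF2-alpha and ATF4, 7 of 29 tested genes rose and 0 fell, with a median of 0.55. The shares over all genes, here and for the folding and heat shock lists below, were 1.66% higher and 0.663% lower. Besides GDF15, DDIT3 and SLC7A11, the called members were PPP1R15A, which recruits the eIF2-alpha phosphatase, at 1.31, PHGDH, the first enzyme of serine synthesis, at 1.09, ATF3 at 1.05 and AARS1, an alanyl-tRNA synthetase, at 0.84. ATF4 at 0.68, ASNS at 0.50 and TRIB3 at 0.81 were not called. Genes of protein folding and degradation in the endoplasmic reticulum rose in 7 of 27 and fell in 0, with a median of 0.68. DNAJB9, a co-chaperone, was 10.22, 9.99 and 9.92 in controls and 12.28, 12.23 and 11.98 in the combined cells, a rise of 2.12 ± 0.18. HERPUD1, of the degradation machinery, rose by 1.79, and HSPA5, the chaperone BiP, by 1.21, from 15.56, 15.37 and 15.56 to 16.81, 16.52 and 16.80. XBP1 at 0.68 and ERN1, which encodes the sensor IRE1, at 0.71 were not called. Of 22 cytosolic heat shock genes HSPB8 at 1.34 and BAG3 at 1.31, partners in chaperone-assisted autophagy, rose. The count was 1 without control array 1 or combined array 1, where HSPB8 was lost, and 3 without control array 3. The median of that list was 0.10 and turned to -0.01 with quantile normalization.

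YAP and TEAD targets were the list with the most falls, 5 of 25 tested with 0 rises and a median of -0.20, where 0.663% of all genes fell. ANKRD1 was 11.70, 11.56 and 12.38 in controls and 10.26, 9.48 and 10.06 in the combined cells, and THBS1, thrombospondin 1, was 15.65, 15.78 and 16.20 against 15.02, 14.92 and 14.73. TEAD1, a partner factor of YAP, fell by 0.88. The classical targets CCN1 at -0.10 and CCN2 at -0.75 were not called. The count fell to 2 without combined array 3 and to 3 without control array 3, and without control array 3 the median turned to 0.04. Among 21 genes of BMP signalling only the ligand BMP4 fell, while the targets ID1 at -0.33, ID2 at -0.17, ID3 at 0.91 and SMAD6 at 0.36 were not called.

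Among 23 targets of p53, GDF15, CDKN1A (the cell-cycle inhibitor p21) at 1.84, TP53INP1 at 1.39 and TP53I3 at 1.28 rose, and MDM2 at 0.39 and BAX at -0.05 were not called. For this list and the others of this paragraph, 1.66% of all genes rose and 0.663% fell. Of 31 mitosis genes TOP2A and CENPE fell, by 1.0 and 1.07, and the CENPE call was lost in 8 alternatives and that of TOP2A without combined array 2. None of 32 DNA replication genes was called in limma, with 4 at an unadjusted p under 0.05 and 1 called lower with quantile normalization. NF-kB and inflammatory genes went both ways, with CSF1, NFKBIA at 1.58 and LIF at 0.74 higher and MALT1 and TNFAIP3, a brake on the pathway, at -0.81 lower among 24. The TNFAIP3 call was lost in 8 alternatives, among them the omission of any 1 array other than control array 1. IRF1 at 1.52, TAP1 at 1.46 and IRF9 at 1.01 rose among 25 interferon response genes, where the IRF9 call was lost without any 1 array other than control array 3. The sensors IFIH1 at 0.47 and RIGI at 0.35 and the antiviral effectors MX1 at 0.06 and IFIT1 at 0.33 were not called.

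For the lists that follow, 1.66% of all genes rose and 0.663% fell. Among immediate early genes and ERK feedback genes 5 of 29 rose. They were led by the phosphatase DUSP5, which was 9.32, 9.26 and 9.82 in controls and 11.52, 11.60 and 11.55 in the combined cells. The count of 5 fell to 2 without control array 1 and to 3 without control array 2 or any 1 of the combined arrays. EPAS1, which encodes HIF-2-alpha, at 1.49, NDRG1 at 0.98 and the glucose transporter SLC2A1 at 0.83 rose among 31 genes of hypoxia and glycolysis, a count of 0 without combined array 1 and 1 without control array 1. SPP1 and SPARC rose and TIMP3 and THBS1 fell among 29 matrix genes. SPARC was lost without control array 1, combined array 1 or combined array 3, and THBS1 without combined array 3. CCND1 rose and LEF1 and WIF1 fell among 18 Wnt genes. The CCND1 call was lost without control array 1 or combined array 2, and that of WIF1 without control array 1 or 2 or combined array 1 or 2. None of 30 respiratory chain genes was called, with 9 at an unadjusted p under 0.05 in limma, where 10.6% of all clusters had one. Their median change was 0.31, or 0.20 with quantile normalization. Without overlap 11 of them lay higher and 1 lower, where 8.22% and 5.51% of all clusters did. These shares and the 10.6% are over all clusters, many without a symbol. The shares over genes with 1 symbol, from which the list came, were not counted and may differ. Of 21 ribosomal protein genes 0 were called and 0 had an unadjusted p under 0.05.

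**Figure D4:**
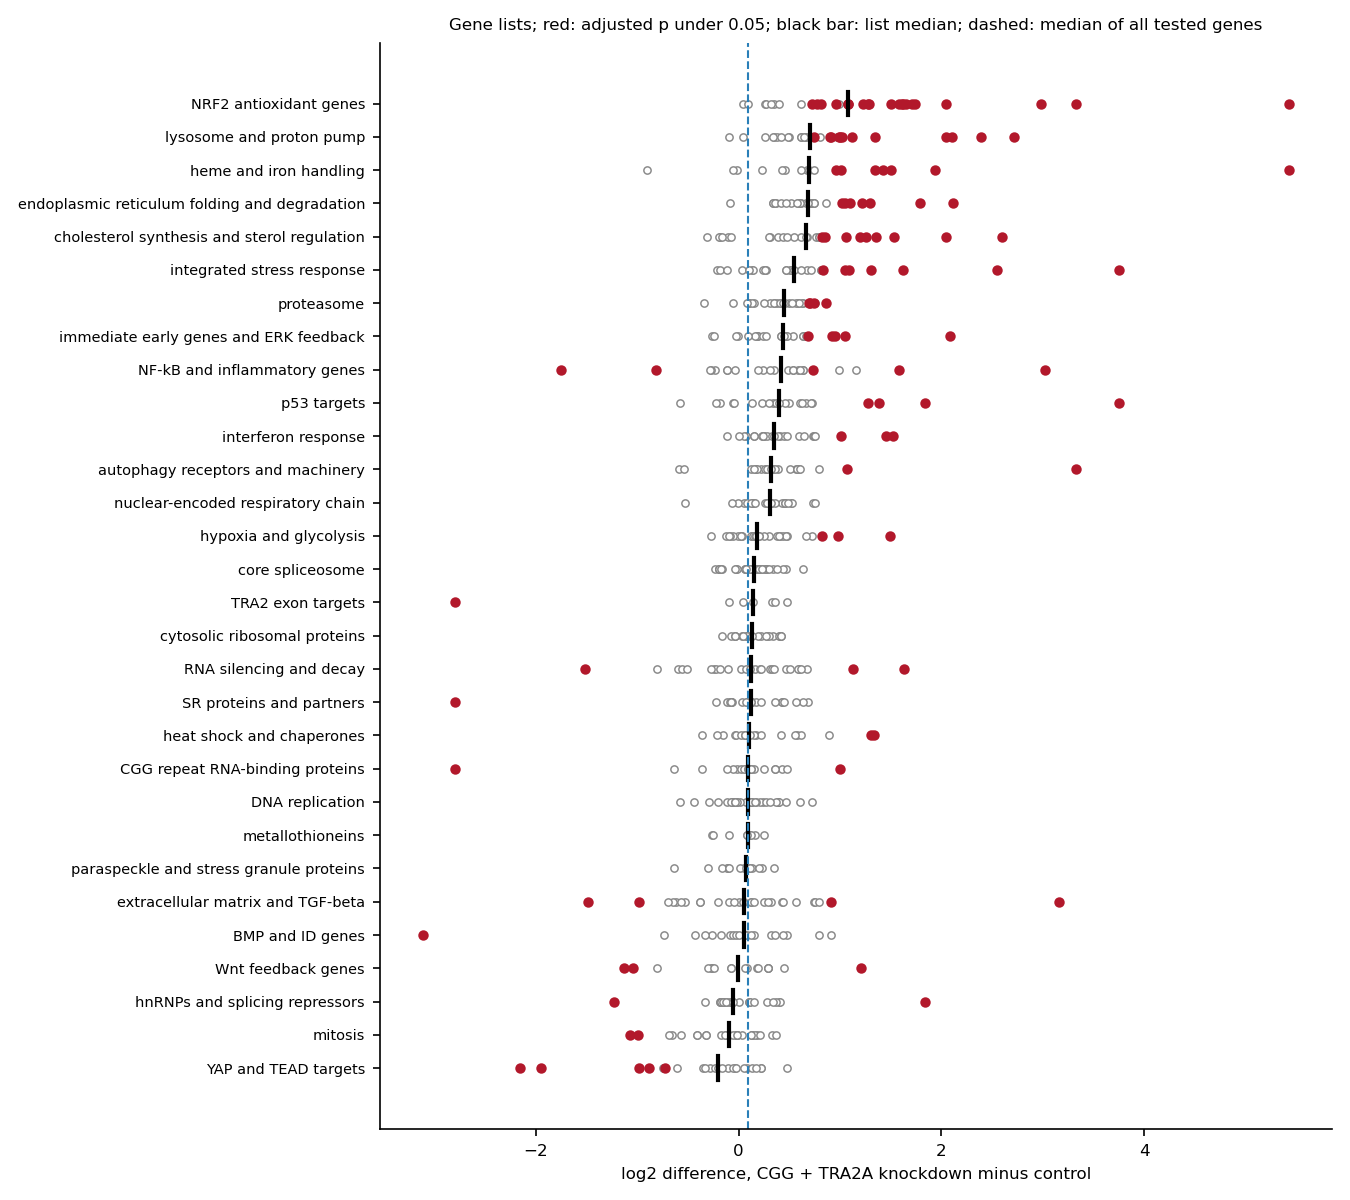
Change in log2 value against control (x axis) of every tested member of the 30 gene lists other than marker lists, ordered by list median (black bar), with called members in red and the median of all genes as a dashed line. NRF2 antioxidant genes lie farthest to the right with 20 called members, and YAP and TEAD targets lie at the bottom with 5.

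Splicing factors were read in 3 lists, against a background of 2.32% of all genes called in either direction. Of 24 tested SR proteins and their partners TRA2A was the single call, and SRSF1 at 0.12, SRSF3 at 0.13 and SRSF7 at 0.22 were not called. Without control array 3 this list had 2 rises beside the fall of TRA2A. None of 33 core spliceosome genes was called in limma, with 4 at an unadjusted p under 0.05, and the list's median was 0.16. In the list of hnRNPs and other splicing repressors PTBP2, the neuronal polypyrimidine tract-binding protein, rose and its paralog PTBP3 fell among 25. PTBP2 was 10.23, 9.43 and 10.49 in controls and 11.82, 12 and 11.86 in the combined cells, 3.59-fold higher (adjusted p = 6.40e-04), and PTBP3 was 15.87, 15.58 and 16.10 against 14.56, 14.59 and 14.71. Of 22 genes whose proteins have been linked to CGG repeat RNA, LMNA, the nuclear lamin A/C, rose by 1.0 and TRA2A fell. DGCR8 at 0.10, DROSHA at 0.03, KHDRBS1 (SAM68) at 0.16, PURA at 0.47, HNRNPA2B1 at 0.10 and MBNL1 at 0.13 were not called. In the list of RNA silencing and decay DCP2, the mRNA decapping enzyme, rose by 1.63, CNOT6, a deadenylase, rose by 1.13 (lost without control array 2), and PRKRA, the PACT activator of PKR, fell by 1.51 among 29. None of 19 paraspeckle and stress granule genes was called (1 at an unadjusted p under 0.05).

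Set against CGG cells, whose labels lack the knockdown, 100 of 67854 transcript clusters (0.147%) were called, 16 higher (0.0236%) and 84 lower (0.124%). The labels name no control siRNA for CGG cells, and CGG array 1 was rehybridised. Loss of TRA2A and other effects of receiving an siRNA therefore cannot be told apart in this comparison. CHP1 changed most among named genes, from 14.30, 13.91 and 14.23 in CGG cells to 11.15, 11.15 and 11.75, 6.95-fold lower (log2 change -2.80 ± 0.19, adjusted p = 5.20e-07, limma). TRA2A fell by 2.75 in the same comparison, STRADB by 2.01 and ARMCX1, an armadillo repeat protein of mitochondria, by 1.83. ARMCX1 was 9.10, 9.32 and 10.00 in CGG cells, 8.15, 7.02 and 7.76 in the combined cells and 7.81, 8.03 and 8.34 in controls. The combined arrays of ARMCX1 thus overlap with the controls and not with CGG cells, and its difference from control was -0.42 ± 0.28 (adjusted p = 0.662). IGF2BP2 at -1.28, GJA1 at -1.28, PRKRA at -1.23, FOXP1 at -1.10 and PTBP3 at -0.85 were also called lower than in CGG cells.

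The largest rises against CGG cells were PTBP2 by 1.78, ZNF708, a zinc finger gene, by 1.55, NHLRC3 by 1.49 and DCP2 by 1.45. PTBP2 was 10.50, 9.57 and 10.26 in CGG cells, below all 3 combined arrays. DCP2 was 9.16, 9.12 and 9.06 in CGG cells and 10.53, 10.69 and 10.46 in the combined cells, again without overlap. With the knockdown alone the means were 11.43 for PTBP2 and 10.70 for DCP2. The NHLRC3 call was lost in 8 alternatives. Over 29 NRF2 genes the median difference from CGG cells was -0.01, with 0 called higher and 1 lower (0.0545% and 0.277% over all genes, 0.331% in either direction), which was UGDH, a UDP-glucose dehydrogenase, at -1.11. Over 28 lysosome genes the median was -0.02 with 0 calls.

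Set against knockdown alone, whose labels lack the CGG construct, 0 of 67854 transcript clusters were called (0%), with 3209 (4.73%) at an unadjusted p under 0.05 in limma. The repeat and the transfection of a construct cannot be told apart in this comparison. The lowest adjusted p of any cluster was 0.0883. With the replicate number as a block 2 clusters were called and without combined array 3 there was 1. The median SE of a difference was 0.226, so that a typical 95% interval reached 0.475 to each side, and 147 clusters differed by 2-fold or more in their means. HMOX1 differed by -0.31 (95% interval -0.91 to 0.29), SQSTM1 by 0.05 (-0.30 to 0.40), NPTX1 by -0.11 (-0.47 to 0.26) and CHP1 by -0.19 (-0.58 to 0.21). DDIT3 was 0.84 higher in the combined cells (0.35 to 1.34, adjusted p = 0.926) and LCN2 1.17 higher (adjusted p = 0.766). DDIT3 arrays did not overlap, at 7.72, 7.47 and 7.35 with knockdown alone against 8.47, 8.63 and 7.97. The named genes with the smallest p were the pseudogenes KRT18P68, 1.04 higher (adjusted p = 0.439), and ERHP2, 0.91 lower on the log2 scale, at 4.27, 4.09 and 4.69 against 5.07, 5.28 and 5.43, and CDCA4, a cell division cycle-associated gene, 1.03 higher (adjusted p = 0.766).

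The interaction asked whether the combined change equals the sum of the CGG change and the knockdown change, each against control. It was called for 119 transcript clusters (0.175%), 31 positive (0.0457%) and 88 negative (0.13%). For HMOX1 the changes were 5.83 with CGG, 5.74 with knockdown and 5.43 with both, so the combined change was far below the sum. For NPTX1 they were -3.57, -3.42 and -3.53. Leaving out control array 1 gave 56 interaction calls, leaving out control array 2 gave 257 and leaving out knockdown array 1 gave 49, as many as with rehybridisation as a covariate.

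At the exon level, each exon region or junction was read relative to its gene on the same array. Against controls 861 of 230888 tested features (0.373%) were called, 584 higher (0.253%) and 277 lower (0.12%), made up of 492 exon regions and 369 junctions in 621 genes. Without control array 3 the count was 1752, with 701 higher and 1051 lower, and without combined array 2 it was 450. The filter kept features whose mean over all 18 arrays was above 7.46. Of the 584 features called higher, 126 (21.6%) averaged at or below 7.46 over the 9 arrays without the CGG construct and passed through the groups that carry it, so that they had to differ, against 0.978% of all tested features. By the mean of the controls alone, 194 of the 584 (33.2%) lay at or below the filter, against 3.32% of all tested features.

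The 5 features named for the size of their rise are junctions, and 3 of them passed the filter in that way. In the controls alone the means of all 5 lay below the filter. The PLAU junction (JUC1000052527.hg.1, of the urokinase gene) averaged 3.59 over the 9 arrays without the construct, that of PUSL1, a pseudouridine synthase-like gene, 4.68, and that of REG1A, a secreted pancreatic lectin, 6.86. The junctions of EMILIN1, an elastic fibre protein, and CLEC17A, a C-type lectin, averaged 7.53 and 8.17, with control means of 6.96 and 7.34. Where the signal is this low in controls its size is not measured well, so the levels are given here as a description, with no exact difference.

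The PLAU junction was 3.07, 2.59 and 3.44 in controls and 12.67, 12.80 and 11.72 in the combined cells, while PLAU as a gene changed by 0.29 (adjusted p = 0.742). It was 12, 13.10 and 13.24 in CGG cells and 11.88, 9.18 and 11.33 in CGG cells with overexpression, but 5.71, 3.40 and 3.40 with knockdown alone and 3.33, 3.16 and 4.21 with overexpression alone. The REG1A junction was 6.42, 5.56 and 6.29 in controls, 14.32, 14.56 and 14.04 in the combined cells, 13.04, 15.26 and 14.75 in CGG cells and 8.55, 7.61 and 6.53 with knockdown alone. For both, every array with the construct lay above every array without it, which the filter and the choice by size of rise partly fix.

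The CLEC17A junction was 8.17, 6.06 and 7.79 in controls and 14.63, 15.25 and 14.43 in the combined cells, and reached 10.17 in a knockdown array, below its lowest value with the construct, 12.58. The EMILIN1 junction was 7.34, 5.97 and 7.56 in controls and 14.73, 13.60 and 14.50 in the combined cells. The lowest value of the PUSL1 junction with the construct, 8.10, came from the rehybridised CGG array 1 and lay above the highest without it, 5.93. Here too the choice of the junctions partly fixes the separation. PUSL1, REG1A, EMILIN1 and CLEC17A as genes changed by -0.02, 0.43, -0.30 and 0.12, none called.

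**Figure D5:**
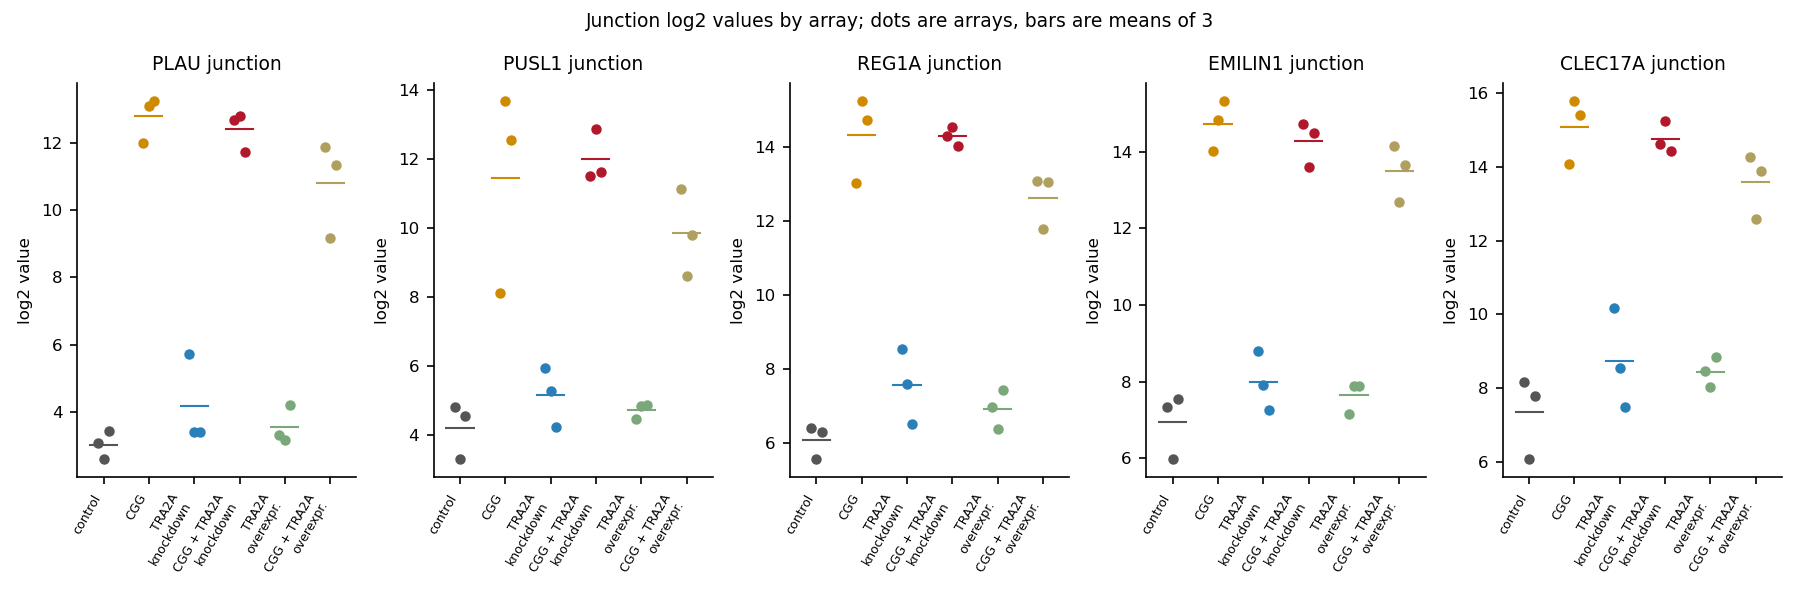
Log2 value (y axis) of the junctions of PLAU, PUSL1, REG1A, EMILIN1 and CLEC17A named for the size of their rise relative to their genes, in each array (dots) of the 6 groups (x axis), with the mean of 3 arrays as a bar. In each panel the 3 groups with the CGG construct lie above the 3 groups without it, which the choice of the junctions partly fixes.

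The largest falls relative to the gene came from genes that rose. A junction of HMOX1 (JUC2200050048.hg.1) was 8.97, 9.21 and 7.20 in controls and 9.02, 9.47 and 9.87 in the combined cells, and relative to the gene it fell by 4.43 ± 0.58 (adjusted p = 8.74e-04). A junction of GDF15 stood at a mean of 8.37 in controls and 8.09 in the combined cells and fell by 4.04 relative to the gene. An exon region of SQSTM1 averaged 10.64 in controls and 10.26 in the combined cells and fell by 3.71. A junction of CSF1 also fell by 3.71 and an exon region of INSIG1 by 3.17. Each of these features moved by less in its own value than its gene did, so the relative fall marks a probe set that did not follow the gene upward.

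Against CGG cells 18 features were called (0.0078%), 17 higher (0.00736%) and 1 lower (0.000433%). They lay in TRA2A with 6 features, CHP1, SLC15A4, NUP43 and MANBAL with 2 each, and PTBP2, WNK1, EHD2 and SZRD1 with 1 each. TRA2A and CHP1 as genes changed by -2.75 and -2.80 against CGG cells. A higher relative value in these 2 genes therefore need not be a higher signal of the feature itself. A junction of MANBAL (JUC2000050183.hg.1) stood 2.54 ± 0.24 higher relative to its gene (adjusted p = 4.05e-04, limma). Its mean relative value was -0.01 in controls, -1.42 in CGG cells and 1.11 in the combined cells, and it was not called against control (adjusted p = 0.052). Exon regions of NUP43, a nucleoporin gene, stood 1.76 and 1.93 higher. The PTBP2 region was 1.83 lower relative to the gene, which had itself risen. Against knockdown alone 224 features were called (0.097%), all 224 higher and in 203 genes, where the gene level gave no call. The 224 comprised 119 junctions and 105 exon regions, their median change was 2.98, and 0 of them were called against CGG cells. In 211 of the 224 all 9 arrays with the CGG construct lay above all 9 arrays without it. The choice of the features for this difference partly fixes that count. The share over all tested features was not counted, so the 211 are given as a description. Of the 224, 87 (38.8%) averaged at or below the filter over the arrays without the construct, so they passed it through the groups that carry it.

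Exons whose inclusion Tra2 proteins are known to promote in human cells were read through their genes. In HIPK3, TRA2B, NASP, CHEK1, MAPT and SMN1, 0 of 189 tested features were called against control (0%), with 14 at an unadjusted p under 0.05, where 9.15% of all features had one. NASP, a histone chaperone, held 7 of these 14, and its lowest adjusted p was 0.0891 for region PSR0100158063.hg.1, which was 0.79 ± 0.18 higher relative to the gene. Over the other SR proteins and partners 3 of 697 features (0.43%) were called, and over the core spliceosome 2 of 987 (0.203%), against 0.373% of all features.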

How the data were processed

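RNA was hybridised to Clariom D Human arrays from 100 ng of total RNA by the Whole Transcript Plus protocol, per the labels' protocols. The deposited values are on a log2 scale at gene and exon level, made by the authors with RMA (SST-RMA) in Transcriptome Analysis Console, per the submitters' processing notes, with versions not given in the sources used here. Values were read as deposited in R 4.3.3. Of 135750 transcript clusters, 67854 with a mean above 4.14, the median of means, were tested in limma 3.58.1 with lmFit and eBayes over all 18 arrays and 6 groups (12 residual degrees of freedom), with Benjamini-Hochberg adjustment over all tested clusters and calls at 0.05. An exact permutation test of 3 against 3 arrays cannot go below 0.1. At the exon level the gene value was subtracted from each of 230888 features before the same fit. The number of arrays limits the precision. On simulated data with 67854 features for the comparison with control, 46% of changes of 1 and 91% of changes of 2 on the log2 scale were recovered, with 9 false calls beside 137 true ones. Noise there was normal, independent between features and equal in all groups. The combined group alone held changes, 100 of each size. The real arrays need not meet these settings, so the rates may not carry over.

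Arrays of the same number correlated at 0.04, -0.06 and -0.07 in their deviations from group means, so the numbers were not taken as pairs. Named genes were TRA2A, TRA2B and FMR1, the 15 largest called rises and falls without overlap, up to 4 called members of each list, and the largest changes or smallest p elsewhere. Other genes were added after their values were seen. The members and lists were chosen with earlier results of these data known. Alternatives were other filters, quantile normalization, other variance models, a replicate block, rehybridisation as a covariate and leaving out each array. Symbols came from the platform annotation, and clusters with several or no symbols (874 and 41567 of those tested) were not named. Probe sequences were not used here.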

Additional observations from a re-analysis of the deposited data

Results flagged for a closer look

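The interaction of CGG and TRA2A knockdown is the combined change minus the sum of the changes with each alone. A call means that the change with knockdown differed between cells with and without the construct (limma, Benjamini-Hochberg). The 8 genes below had the 4 largest called interactions in each direction among genes that could be named. Other named genes passed too, among them EPHX1 at -2.81 (limma adjusted p = 2.93e-05). HMOX1 had an interaction of -6.14 ± 0.40 (adjusted p = 1.22e-07), with means of 5.76 in controls, 11.59 in CGG cells, 11.50 with knockdown and 11.19 with both. AKR1B15 had -4.95 ± 0.24 (adjusted p = 2.35e-09), with means of 7.30, 12.23, 12 and 11.98 in the same order. These genes stood at much the same level in each of the 3 treated groups. GDF15 had -3.88 ± 0.36 (adjusted p = 2.03e-05), with means of 6.61, 10.43, 10.43 and 10.36, and SQSTM1 had -3.84 ± 0.23 (adjusted p = 5.06e-08), with means of 11.49, 15.38, 14.77 and 14.82.

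Among genes that fell, NPTX1 had an interaction of 3.46 ± 0.25 (adjusted p = 3.95e-07), with means of 13.36, 9.79, 9.93 and 9.83. ANKRD1 had 2.74 ± 0.32 (adjusted p = 4.17e-04), with means of 11.88, 9.72, 9.36 and 9.93. ALPK2 had 2.50 ± 0.29 (adjusted p = 2.99e-04), with means of 11.81, 9.60, 9.55 and 9.84, and MALT1 had 2.37 ± 0.33 (adjusted p = 0.00347), with means of 14.48, 12.29, 12.55 and 12.73. For each of the 8 genes the call and sign held in all 19 alternatives, with a largest adjusted p of 0.0167 for MALT1. Transfection and handling cannot be told apart from the treatments here, since the controls are the single group without them in the labels.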

How the results depend on the processing

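TRA2A changed by -2.90 to -2.70 in the 13 alternatives, each past the threshold. Of the 85 called among 111 named genes, 8 calls were lost with no filter, 6 with quantile normalization, 39 when the variance came from the compared arrays alone, and 7 to 19 when 1 array was left out, and no direction turned. The 665 calls against control became 1051 with a filter at the 75th percentile, where fewer clusters were tested, 87 with the variance of the compared arrays alone, where fewer arrays inform it, 990 with a trended robust variance, and 323 to 897 without 1 array: 350, 421 and 897 without control array 1, 2 and 3, and 323, 390 and 366 without combined array 1, 2 and 3. The 100 calls against CGG cells became 13 with the variance of the compared arrays, 156 with the trended one, 279 by the 2-fold rule (2-fold or more at an unadjusted p below 0.05), and 46 to 80 without 1 array (58, 57 and 58 without CGG array 1, 2 and 3, 52 and 46 without combined array 1 and 2). The 0 calls against knockdown became 136 by the 2-fold rule and 0 to 1 without 1 array. The 119 interaction calls became 225 at the 75th percentile, 35 with the variance of the compared arrays, 241 with the trended one, 49 with rehybridisation as a covariate, 2128 by the 2-fold rule and 49 to 257 without 1 array (56 and 257 without control array 1 and 2, 71 and 57 without CGG array 2 and 3, 49 and 73 without knockdown array 1 and 3, 60 and 54 without combined array 1 and 2). The 861 exon-level calls became 405 at the 75th percentile, 278 with the variance of the compared arrays and 450 to 1752 without 1 array (481 and 1752 without control array 1 and 3, 470, 450 and 519 without combined array 1, 2 and 3). The cause of these moves was not tested. Quantile normalization turned the median of 6 lists from above to below 0: kidney epithelial markers, paraspeckle and stress granule proteins, heat shock genes, DNA replication, CGG repeat RNA-binding proteins and metallothioneins. Counts per list under quantile normalization and without 1 array were alternatives chosen after seeing the data.

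With the replicate number as a block, although the numbers do not pair the arrays, the calls were 588 against control, 76 against CGG cells, 2 against knockdown, 88 for the interaction and 711 at the exon level, and 7 named genes lost their call. Signal near background limits what low genes can show, and human probes on monkey RNA may not read every transcript equally, which was not tested.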
